A study of Mus musculus with 10 samples.

Results

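The miR-26 family of mouse liver comprises miR-26a and miR-26b, 2 mature miRNAs with the same seed. They were found by name in a deposited table of 285 mature miRNAs, in which each had 1 row without an arm suffix, and they were followed across all 10 libraries of the series. Small RNA had been sequenced in 5 liver libraries of control mice and 5 of Tsc1 mutant mice, all mice 14 weeks old. The mutants are described as L-Tsc1KO animals, a liver knockout of Tsc1, and the controls as their littermates. The promoter that drives the deletion is not given in the sources used here. Whole liver was homogenised, so non-parenchymal cells contributed RNA, and fewer cells of a type cannot be told apart from less RNA per cell. The labels do not say in words that each replicate was a separate animal, so the tests measure the spread between these libraries.

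A miRNA pairs with messenger RNAs mainly through its seed, bases 2 to 8 from the 5′ end, and lowers their stability and translation. The miR-26 family is known in liver for restraining growth. MYC lowers its expression, it targets cyclins and the methyltransferase Ezh2, and it has been linked to hepatic insulin sensitivity and gluconeogenesis. Tsc1 is a subunit of the TSC complex, which restrains mTORC1, and loss of it releases mTORC1 signalling. The series was concerned with gluconeogenesis after loss of that complex.

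The mature sequences show what the members share and where they part. They are the 5p arms in RefSeq (GRCm38.p6), the arm that older names without a suffix usually denote; the table itself does not state the arm. Capitals mark the seed.
miR-26a-5p: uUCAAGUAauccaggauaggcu
miR-26b-5p: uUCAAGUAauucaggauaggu
The seed UCAAGUA was found in these 2 of 1679 mature mouse miRNA names in RefSeq and, by name, in no other miRNA of the table among the 239 of 285 rows that matched a mature sequence. Counted from the 5′ end, with the base of miR-26a first, the members differ by C11U and C21U. The first 10 bases are identical, and miR-26a is 22 bases long against 21 for miR-26b. A read that covers base 11 without error can therefore be assigned to one of them, although how the authors treated mismatches is not given in the sources used here.

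Hairpin genes at 3 loci encode the family, and each lies within a gene of the small C-terminal domain phosphatases, on the same strand. The hairpins are shown because both miR-26a genes give the same mature miRNA, so the value of miR-26a is the sum of their output. Capitals mark the mature 5p miRNA.
Mir26a-1: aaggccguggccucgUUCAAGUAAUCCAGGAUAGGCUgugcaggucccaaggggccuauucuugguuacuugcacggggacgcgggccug
Mir26a-2: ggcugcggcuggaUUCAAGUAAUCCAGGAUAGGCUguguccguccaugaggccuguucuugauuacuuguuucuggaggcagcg
Mir26b: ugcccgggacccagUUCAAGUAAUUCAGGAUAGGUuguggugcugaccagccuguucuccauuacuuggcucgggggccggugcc
In GRCm38, Mir26a-1 is at chr9:119031796-119031885 (+), inside an intron of 3 of the 4 annotated transcripts of Ctdspl and in an exon of 0. Mir26a-2 is at chr10:126995530-126995613 (+) in Ctdsp2, where it is intronic in 1 of 4 transcripts and overlaps an exon in 2, one of them annotated as a retained intron. Mir26b is at chr1:74394310-74394394 (+), inside an intron of 2 of the 3 transcripts of Ctdsp1 and in an exon of 0. The 3p arms of these hairpins and the host messenger RNAs were not analysed here.

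The libraries held between 6228497 and 12129069 reads of the listed miRNAs. Values are normalised reads, the authors' counts divided by 1 factor per library. The hepatocyte miRNA miR-122 had the highest mean of all. In these data 3 libraries stood apart: control replicate 1 and Tsc1 mutant replicate 1, which deviated alike from their groups (correlation 0.81 across miRNAs), and control replicate 2, with high biliary epithelial and striated muscle miRNAs. The genotype differences of the members are therefore also given without them. Tsc1 messenger RNA was not measured, so the genotype was not checked.

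Both members were abundant in every library, and neither differed between genotypes beyond the spread between libraries. In each library miR-26a had between 4.42 and 5.79 times the reads of miR-26b. Among all 285 miRNAs, 37 passed a limma adjusted p of 0.05, or 13.0%, and 0 of the 2 members were among them. Groups that did not overlap were found for 12.6% of the miRNAs, and for 0 of the 2 members.

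For miR-26a, the 5 control libraries had 93289, 110717, 122918, 133997 and 101348 normalised reads in replicates 1 to 5. The 5 Tsc1 mutant libraries had 97991, 126490, 114970, 135137 and 124950. The groups overlapped over most of their range: the lowest library of each was its replicate 1 and the highest its replicate 4. Controls averaged 112454 ± 16334 and mutants 119908 ± 14190 (SD, n = 5 each). On the log2 scale mutants exceeded controls by 0.10 ± 0.13 (SE; limma adjusted p = 0.777), a difference within the spread. Its 95% interval ran from -0.19 to 0.39, or from 0.874-fold to 1.31-fold.

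For miR-26b, the controls had 19023, 23107, 27414, 30314 and 22725 normalised reads, and the mutants had 16934, 28557, 25108, 28067 and 27653. The lowest of the 10 libraries was a mutant, replicate 1, and the highest a control, replicate 4, so the groups overlapped here too. Controls averaged 24517 ± 4398 and mutants 25264 ± 4843 (SD, n = 5 each). This gave a log2 fold change of 0.04 ± 0.18 (SE; limma adjusted p = 0.957) with a 95% interval from -0.36 to 0.43, or from 0.781-fold to 1.35-fold. No direction can be given for miR-26b, since its sign turned when any of 4 single libraries was left out, as for control replicate 1 (-0.050).

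**Figure D1:**
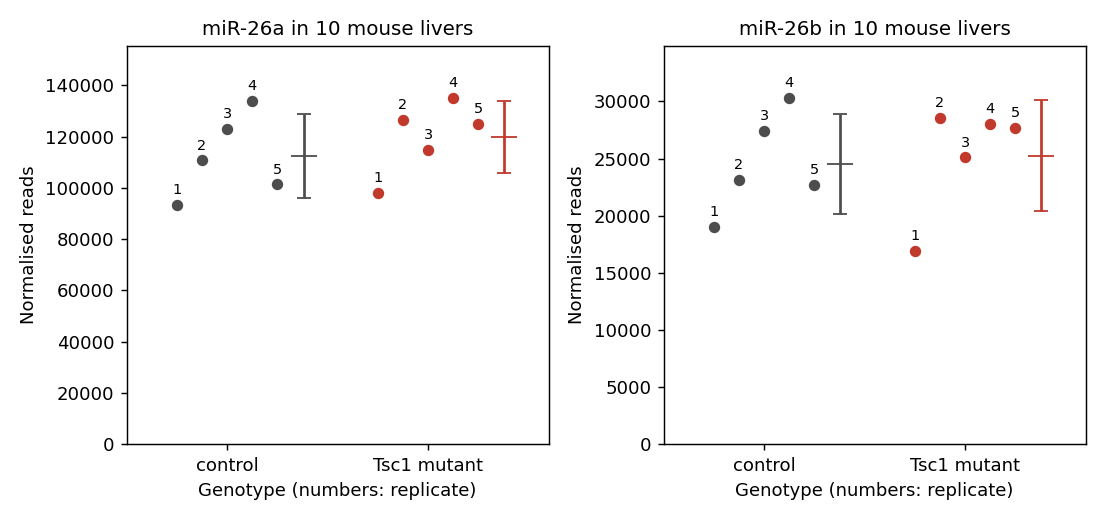
Normalised reads of miR-26a and miR-26b on linear axes from 0, with 1 point per library numbered by replicate, and the mean ± SD of 5 libraries beside each group. Controls and Tsc1 mutants overlap for both miRNAs, and replicate 1 is the lowest library of each group.

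Without both replicates 1 neither member passed the test. The log2 fold change was then 0.10 for miR-26a (limma adjusted p = 0.555) and 0.09 for miR-26b (limma adjusted p = 0.621). With control replicate 2 left out as well, they were 0.08 (limma adjusted p = 0.676) and 0.04 (limma adjusted p = 0.847). Without Tsc1 mutant replicate 1 alone the values were 0.17 for both members, with a limma adjusted p of 0.555 and 0.600. Without control replicate 1 alone miR-26a was at 0.03 (limma adjusted p = 0.859). The size of the miR-26a difference thus moved by more than 1.5 times with single libraries while its sign stayed the same.

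Set among all miRNAs, the members had small differences. Of the 285 miRNAs, 70 had an absolute log2 fold change below that of miR-26a, and 29 below that of miR-26b. The median of all 285 was -0.06.

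**Figure D2:**
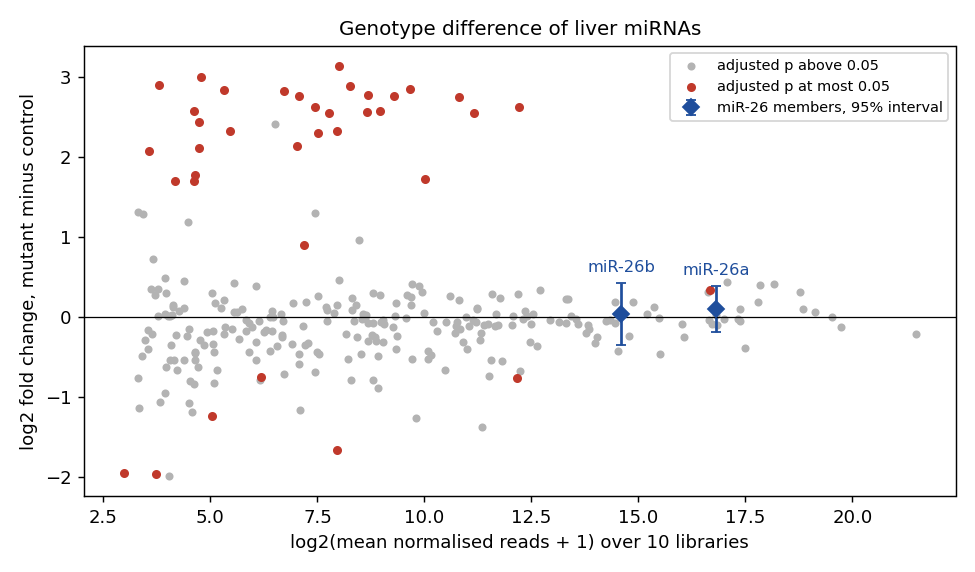
Log2 fold change of Tsc1 mutant minus control livers against log2 of the mean normalised reads plus 1, for 285 miRNAs. Red points passed a limma adjusted p of 0.05, and the blue diamonds with 95% intervals are miR-26a at 0.10 and miR-26b at 0.04, both with intervals that span 0.

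Of all reads of the listed miRNAs, miR-26a made up 1.18 ± 0.110% in controls against 1.30 ± 0.143% in mutants, and miR-26b 0.256 ± 0.0272% and 0.274 ± 0.0509% (SD, n = 5 each). The lowest share of miR-26a was 1.04% in control replicate 5 (95% exact binomial interval 1.03 to 1.04%), and the highest was 1.45% in Tsc1 mutant replicate 4 (1.44 to 1.46%). Counting error was thus small beside the differences between libraries: each miR-26a value rested on at least 79650 reads and each miR-26b value on at least 18019. Depth was lowest in the replicates 4 of both groups, with 6228497 and 6489735 miRNA reads, and in normalised reads, though not as a share in controls, miR-26a was highest of its group in these libraries; the part of depth in that was not tested.

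Summed, the family supplied 1.43 ± 0.135% of the miRNA reads of a control library and 1.57 ± 0.192% of those of a mutant one (SD, n = 5 each). In controls the summed share was 1.32, 1.55, 1.45, 1.57 and 1.27% in replicates 1 to 5. In mutants it was 1.26, 1.68, 1.55, 1.75 and 1.64%. The 3 highest shares were those of mutants, and the lowest of the 10 was a mutant too. The difference of the log2 shares was 0.13 ± 0.10 (SE). It was 0.21 ± 0.072 without Tsc1 mutant replicate 1 and 0.18 ± 0.079 without both replicates 1 (SE). Both were larger beside their errors than with all libraries, but leaving out the lowest mutant share must raise the difference. Dropping the lowest control, replicate 5, gave 0.091 ± 0.10, and dropping the highest mutant, replicate 4, gave 0.091 ± 0.11 (SE). The difference thus depended on which extreme library was removed. Among mutants other than replicate 1 the lowest share, at 1.55%, still lay below the highest control, at 1.57%. No test was run on the summed share. A share also depends on the other miRNAs, of which miR-122 averaged 3174500 normalised reads in controls and 2699950 in mutants. Scaled by library total, the log2 fold change was 0.14 for miR-26a and 0.08 for miR-26b. With miR-122 left out of that total, it was 0.06 and 0.005. The part of miR-122 in the summed share was not tested.

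The miR-26a gene pair supplied most of the family's reads, at 82.4% of the summed normalised reads. The ratio of miR-26a to miR-26b was 4.90, 4.79, 4.48, 4.42 and 4.46 in control replicates 1 to 5. In the mutants it was 5.79, 4.43, 4.58, 4.81 and 4.52. Apart from Tsc1 mutant replicate 1, in which miR-26b was low, all libraries lay between 4.42 and 4.90. The group means of the ratio were 4.61 ± 0.220 and 4.83 ± 0.556 (SD, n = 5 each). On the log2 scale the ratio differed by 0.06 ± 0.08 between genotypes (SE), and by -0.0077 without that library.

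**Figure D3:**
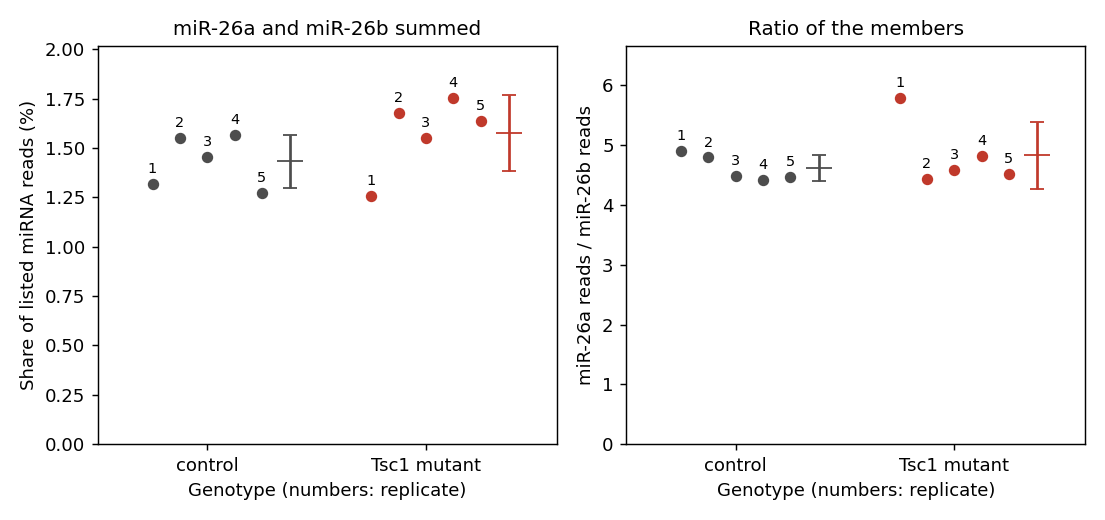
Left, the summed share of miR-26a and miR-26b in listed miRNA reads, in percent; right, the ratio of miR-26a to miR-26b reads. Points are libraries numbered by replicate, bars are the mean ± SD of 5, both axes start at 0, and Tsc1 mutant replicate 1 stands alone with a ratio of 5.79.

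By mean level, miR-26a held rank 17 and miR-26b rank 31 of 285. Within single libraries the rank was 15 to 20 for miR-26a and 30 to 34 for miR-26b. These ranks compare read counts of miRNAs of like length, and how efficiently each sequence enters a library was not measured. Just above miR-26a came the endothelial miR-126-3p, with a mean of 131390 normalised reads and higher than miR-26a in 10 of 10 libraries, and miR-22, at 117381 and higher in 5. Just below came miR-30c at 114657 and miR-30d at 108289, higher than miR-26a in 5 and 3 libraries. Apart from miR-126-3p, these neighbours lay above miR-26a in some libraries and below it in others.

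Just above miR-26b were miR-103, with 29811 normalised reads and higher in 10 of 10 libraries, and miR-125b-5p, at 28065 and higher in 7. Just below it were miR-125a-5p at 23578, higher than miR-26b in 4 libraries, and miR-152 at 22620, higher in 2. Of these 4, miR-103 alone lay on the same side of miR-26b in every library.

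Within genotypes miR-26a was among the steadier miRNAs. Its standard deviation around the genotype means was 0.19 on the log2 scale, against a median of 0.44 over all 285 miRNAs, which ranked it 28 from the least variable. Among the 50 most abundant, whose median was 0.25, it ranked 14. The standard deviation of miR-26b was 0.29, at rank 75 of all and rank 32 of those 50. The less abundant member was thus the more variable one, and Tsc1 mutant replicate 1 was its most distant library.

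The members varied together across libraries. Over the 10 libraries their log2 values had a Pearson correlation of 0.93, and of 0.95 with the genotype means removed. Over the 8 libraries without the replicates 1 these were 0.94 and 0.94. Since all miRNAs of a library share its depth and scaling, and these 2 share most of their sequence, the correlations are given as a description.

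Compared with 205 other miRNAs of at least 50 normalised reads, the pattern most like that of miR-26a over the 10 libraries was that of miR-103, a miRNA linked to insulin sensitivity, with r = 0.95. It was followed by miR-340-3p at 0.94, miR-26b at 0.93, let-7d at 0.92 and let-7a at 0.91. The median over the 205 was 0.07. With genotype means removed, miR-139-5p led at 0.99, before miR-574-5p at 0.97, miR-103 and let-7d at 0.96 and miR-26b at 0.95. Without the replicates 1, the correlation with miR-139-5p was 0.98.

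For miR-26b the leading miRNAs over the 10 libraries were miR-98 and let-7d, both of the let-7 family, at 0.94, then miR-26a at 0.93, miR-335-5p at 0.93 and let-7a at 0.93. With genotype means removed they were miR-335-5p at 0.98, miR-26a, miR-139-5p at 0.95, and let-7d and miR-98 at 0.94. Without the replicates 1, the correlation with miR-335-5p was 0.89 with genotype means removed. With the genotype means left in, it was 0.69 with miR-335-5p and 0.97 with let-7a. The 2 leading miRNAs with genotype means removed have other seeds, shown here in capitals from RefSeq.
miR-139-5p: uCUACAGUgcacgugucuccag
miR-335-5p: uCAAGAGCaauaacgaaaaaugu
Of the bases of miR-26a 40.9% were G or C and of miR-26b 33.3%, against 54.5% in miR-139-5p and 30.4% in miR-335-5p.

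The miRNAs that ran opposite to the family were looked at after the values were seen. The most opposed over the 10 libraries was miR-101c, at r = -0.95 with miR-26a and -0.96 with miR-26b. With genotype means removed, miR-145, a miRNA of stellate and smooth muscle cells, was at -0.96 with miR-26a and -0.92 with miR-26b. In numbers, miR-145 had 4489, 982, 617, 303 and 1196 normalised reads in control replicates 1 to 5, the reverse of the order of miR-26a there. The summed 5 stellate and smooth muscle miRNAs did not follow miR-145. Their sum was 234055 in control replicate 1 and highest among controls in replicate 2, at 363788. The pattern of miR-145 is thus not given as one of the cell type.

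In the replicates 1 the family was set beside miRNAs already picked for their likeness or opposition to it in these libraries. Their shift there is therefore a description and no separate result, and it does not stand for the rest of the library. On the log2 scale miR-26a was lower there than the mean of the other 4 libraries of its group, by -0.32 in controls and -0.35 in mutants, and miR-26b by -0.43 and -0.69. For let-7d the same differences were -1.91 and -1.51, for miR-139-5p -0.76 and -0.74, and for miR-103 -0.39 and -0.29. They were 2.71 and 2.33 for miR-145. The family was thus lower in these 2 libraries, by less than let-7d. None of the miRNAs named for their likeness or opposition to the family passed the test between genotypes, and their limma adjusted p ran upward from 0.306 for miR-574-5p.

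**Figure D4:**
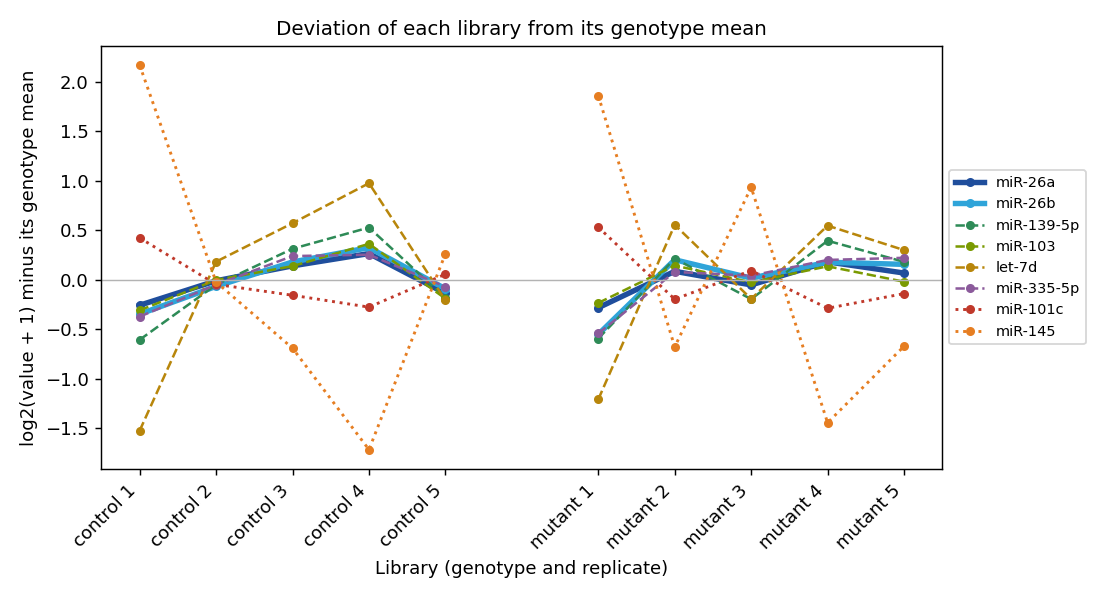
Log2(value + 1) of each library minus the mean of its genotype, for miR-26a and miR-26b (thick lines), 4 miRNAs of like pattern (dashed) and 2 of opposite pattern (dotted); lines join libraries of a genotype only to guide the eye. In both replicates 1 the family, let-7d, miR-139-5p, miR-103 and miR-335-5p are below 0, and miR-145 and miR-101c above.

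Summed cell type miRNAs moved with miR-26a to differing degrees, and their part in its variation was not tested. The correlations include the replicates 1 and were not computed without them. Most of the hepatocyte sum was miR-122, of the endothelial miR-126-3p, of the leukocyte miR-146a, and of the stellate and smooth muscle miR-143. Correlations of these sums thus mostly describe those single miRNAs. The summed 5 hepatocyte miRNAs ranged from 3424625 to 5492139 normalised reads in controls and from 3713771 to 4565320 in mutants, with a correlation of 0.66 to miR-26a across the 10 libraries. The sum of 2 endothelial miRNAs ranged from 113035 to 160119 and from 114892 to 160253, with a correlation of 0.78. The 7 leukocyte miRNAs ranged from 17644 to 29326 and from 16797 to 22575, with a correlation of -0.69, and 5 stellate and smooth muscle miRNAs from 164279 to 363788 and from 131317 to 243057, at -0.60. For 3 erythroid miRNAs, with sums of 3886 to 5924 and 3431 to 6533, it was -0.20. With miR-26b the hepatocyte, endothelial, leukocyte, and stellate and smooth muscle sums had correlations of 0.74, 0.85, -0.72 and -0.64. The biliary epithelial sum ranged from 4996 to 35789 and from 3126 to 7014, and the striated muscle sum (3 of 4 listed members matched) from 268 to 5638 and from 151 to 919. Both peaked in control replicate 2 and had correlations of 0.09 and 0.06. No marker was at 0 in all libraries. Between genotypes 1 of the 5 hepatocyte miRNAs passed the test, miR-802, and 0 in each other cell type list, against 13.0% of all 285 miRNAs.

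The family was also set beside 24 other miRNAs that MYC is known to repress, among them let-7, miR-29 and miR-30 members. All 24 were in the table; 1 rose, miR-29a, 0 fell and 23 did not pass, against 10.9% of all miRNAs that rose and 2.11% that fell. The median log2 fold change of the list was 0.06, against -0.06 for all 285 miRNAs. Its 2 most abundant members were miR-30a at 0.10 (limma adjusted p = 0.836) and let-7f at 0.31 (limma adjusted p = 0.296).

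Of 14 miRNAs linked to hepatic glucose and insulin handling, 2 rose, miR-802 and miR-29a, 0 fell and 12 did not pass, again beside 10.9% of all miRNAs that rose. The median log2 fold change was 0.21. The most abundant members were miR-122 at -0.21 (limma adjusted p = 0.608) and miR-21 at -0.12 (limma adjusted p = 0.917). For miR-802 the log2 fold change was 1.72 ± 0.24 (SE; limma adjusted p = 0.000258). For miR-29a it was 0.34 ± 0.10 (SE; limma adjusted p = 0.0395). The call of miR-29a was lost in 14 of 24 other settings, 9 of which left out 1 library. Whether these fold changes differ from those of miR-26a was not tested.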

How the data were processed

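The deposited signal is normalised miRNA reads: per the labels' DESeq entry in the submitters' processing notes (no version), the authors scaled counts by 1 factor per library. The aligner, annotation, build and filters used upstream are not stated there. Every value was a whole multiple, within 0.001, of 1 step per library (0.711 to 1.68). The multiples were taken as the whole reads, with too few low values for a further check. Read counts and binomial intervals rest on them. Columns were matched to samples by library number.

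All 285 miRNAs (mean of at least 5 normalised reads) were compared as log2(value + 1) with limma 3.58.1 in R 4.3.3, by genotype with an intensity trend and Benjamini-Hochberg adjustment at 0.05. The fit was run on simulated data with planted changes larger than the differences of the members and independent noise for each value. That run does not cover differences as small as theirs, or libraries that deviate together. Of 45 library pairs, 0 were identical and 0 agreed within sampling noise (chi-square). Members, lists and the rule for named miRNAs (members, the 5 most alike by Pearson r, 2 neighbours in level, the 2 most abundant and all called list members) were chosen with earlier results of these data known. Binomial intervals (scipy 1.17.1) cover counting error only. Alternatives were other pseudocounts, filters, scalings and variance models, a replicate block, left-out libraries and, added after seeing the data, voom on whole reads and all settings for miR-802 and miR-29a. Figures used matplotlib 3.10.9.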

Additional observations from a re-analysis of the deposited data

Results flagged for a closer look

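In Tsc1 mutant replicate 1, miR-26b made up 0.185% of miRNA reads, the lowest of its group, with a gap to the other 4 mutants that was large beside the range of the group. The same library had the highest ratio of miR-26a to miR-26b among mutants, 5.79. Both values rest on the same low miR-26b, so they are 1 event. In normalised reads, where that library had 16934, the gap made up 0.703 of the range and fell just short of the limit. Of 12 groups of 5 values examined, 2 stood out at a limit of 0.71, the share with 0.749 and the ratio with 0.716. The groups are overlapping measures of the same 2 miRNAs, so their number cannot be set against a chance rate.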

How the results depend on the processing

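Neither miR-26a nor miR-26b passed the threshold in any of 24 other settings, where the limma adjusted p ran from 0.555 to 0.921 and from 0.600 to 0.998. The log2 fold change of miR-26a was positive in all 24, between 0.032 and 0.167, but the settings reuse the same libraries and so give it no direction. That of miR-26b ran from -0.050 to 0.175 with single libraries left out, and turned negative without control replicate 1 (-0.050), Tsc1 mutant replicate 2 (-0.014), Tsc1 mutant replicate 4 (-0.0077) or Tsc1 mutant replicate 5 (-0.0023). No scaling moved the median of all miRNAs by more than 0.045. The summed share and the ratio of the members moved by less than 1 SD between replicates, from 0.091 to 0.213 and from -0.0077 to 0.089.

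Over all miRNAs, 31 were higher and 6 lower in mutants. With a mean of at least 50 required, fewer miRNAs were tested, and 19 were higher and 3 lower. The number lower was 23 with array weights, 11 without both replicates 1, and 13 without control replicate 2 as well; the cause was not tested. With single libraries left out it ran from 2 (without Tsc1 mutant replicate 4) to 10 (without control replicate 1), and was 3 without control replicate 3 or 5; the number higher ran from 28 to 34. With the replicate number as a block, 35 were higher and 10 lower, miR-26a was at 0.10 (limma adjusted p = 0.573) and miR-26b at 0.04 (limma adjusted p = 0.884). The block lowered the SE of miR-26a from 0.132 to 0.093 and that of miR-26b from 0.178 to 0.115. Deviations of same-numbered libraries had correlations of 0.81, 0.16, -0.021, 0.46 and 0.048. Control replicates 1 and 4 correlated best with their own number, but not every library did. Whether the numbers pair the samples cannot be told from these values. The planned edgeR test was not run, because too few low values allow a check of the recovered reads. The fit with voom used the same recovered reads and shares that limit. It gave 31 higher, 6 lower, and 0.10 and 0.04 for the members. Depth was not limiting for the members, whose precision is set by the 5 libraries per group.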
